A study of Mus musculus with 6 samples.

Results

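The genes described here are 10 heat-inducible chaperones and their regulator, *Hspa1a*, *Hspa1b*, *Hsph1*, *Dnajb1*, *Dnajb4*, *Hspb1*, *Hspb8*, *Cryab*, *Bag3* and *Hsf1*. They were taken by symbol from count tables of 23183 genes, all 10 were found, and all 10 passed the filter on low counts that left 12517 genes for testing. The tables come from 6 tumours of UV2237M, a mouse fibrosarcoma line (a malignant tumour of connective tissue cells), all labelled wild type. The 3 untreated tumours were given nothing. The 3 treated tumours were given gold nanoclusters (GNC), gold particles that warm up under light, at 2 times, day 1 and day 7, and were exposed to near-infrared (NIR) radiation. GNC and NIR were given together in each treated tumour, so their effects cannot be told apart. The labels give neither the host strain and its age, nor the dose, nor how long after irradiation the RNA was taken. They also do not say that each tumour came from a separate animal, so the p-values measure the spread between these samples.

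Heat shock factor 1, the product of *Hsf1*, is held inactive in unstressed cells by chaperones. When heat unfolds proteins these chaperones are drawn away, the factor forms trimers, and the trimers bind heat shock elements, runs of the unit nGAAn in alternating orientation, and switch on chaperone genes within a short time. The HSP70 proteins refold clients with the help of J-domain partners and nucleotide exchange factors, small heat shock proteins hold unfolded clients without using ATP, and BAG3 links HSP70 and HSPB8 to autophagy. In solid tumours parts of this response can be active without applied heat.

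Promoter sequence is shown for 4 genes whose values the results turn on and in which matches to heat shock elements lay upstream of the start. RefSeq windows (GRCm38.p6, the build also called mm10) from 250 bases before to 50 bases after each transcription start were held for 8 of the 10 genes, in 11 windows, and none for *Cryab* and *Hsf1*. Searched were the head-to-head pair GAANNTTC and the tail-to-tail pair TTCNNGAA, which read the same on both strands, and, on both strands, the run of 3 units GAA, TTC and GAA with 2 free bases between units, which contains both pairs. The 150 bases before the start are printed below, 5′ to 3′ on the strand of the gene, and capitals mark a pair or a run of 3 units with at most 1 of its fixed letters changed. The stretches are chr17:34972157-34972306 for *Hspa1a*, chr17:34959239-34959388 for *Hspa1b* and chr5:149636337-149636486 for *Hsph1*, all on the minus strand, and chr5:135887769-135887918 for *Hspb1*, on the plus strand.
Hspa1a: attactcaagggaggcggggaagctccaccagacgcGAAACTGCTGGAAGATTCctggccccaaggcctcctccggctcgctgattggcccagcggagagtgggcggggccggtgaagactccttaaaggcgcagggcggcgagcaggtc
Hspa1b: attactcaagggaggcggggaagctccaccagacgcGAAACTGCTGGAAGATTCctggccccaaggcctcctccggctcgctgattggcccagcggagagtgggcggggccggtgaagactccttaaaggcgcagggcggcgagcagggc
Hsph1: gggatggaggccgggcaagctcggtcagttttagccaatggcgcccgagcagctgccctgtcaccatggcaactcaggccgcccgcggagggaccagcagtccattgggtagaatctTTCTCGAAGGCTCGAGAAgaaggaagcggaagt
Hspb1: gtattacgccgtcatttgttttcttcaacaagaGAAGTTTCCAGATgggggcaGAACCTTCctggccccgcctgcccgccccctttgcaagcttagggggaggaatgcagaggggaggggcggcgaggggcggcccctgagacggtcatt

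In *Hspa1a* and *Hspa1b* the marked stretch lay 114 to 97 bases before the start, and 149 of the 150 bases shown were the same. *Hspb1* had 2 head-to-head pairs, from -117 and from -97. *Hsph1* had a tail-to-tail pair from -33, and it was the only member with an exact run of 3 units, from +37 to +49 at the first of its 2 starts, the one whose stretch is shown, counting the first transcribed base as +1. At least 1 pair was found in 8 of the 11 windows (7 of the 8 genes), against 15.06% of 32851 windows of all genes. A run of 3 units with up to 1 change was found in 6 of the 11 windows (5 genes), against 7.22% of all windows. The exact run of 3 units was found in 0.6% of all windows. These shares count windows and not genes. The member windows are not all separate, since those of *Hsph1* overlap and hold the same matches. The windows of *Hspa1a* and *Hspa1b* are 98.8% identical over the 250 bases before the start. In *Hspb8* and *Bag3* the pair lay after the start, *Dnajb4* had its pair at the second of 2 starts, and *Dnajb1* had no match to these letters in either of its windows. These are matches of letters, and binding was not measured.

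**Figure D1:**
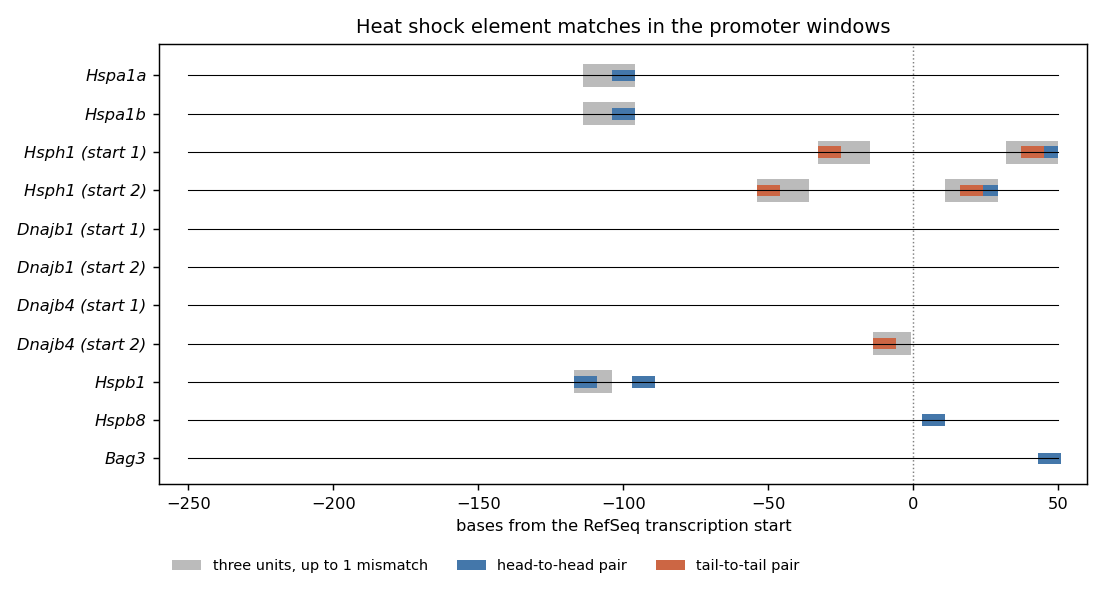
Positions of heat shock element matches in 11 promoter windows of 8 genes. The x axis gives bases from the RefSeq transcription start (dotted line), each row is 1 start, grey bars are runs of 3 units with up to 1 change, and blue and orange bars are head-to-head and tail-to-tail pairs. Matches in *Hspa1a*, *Hspa1b* and *Hspb1* lie about 90 to 117 bases before the start, and *Dnajb1* has none.

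The libraries held 4680295 to 8019294 counts, and values below are CPM, counts scaled to a common library size after TMM adjustment. The values of a group are listed in the order of its libraries 1, 2 and 3. Fibroblast markers were detected in each library, with 24657 to 31213 CPM summed over the 8 genes of the list. The largest part of the sum was *Col3a1* (12570 to 22445 CPM), and single markers varied more. *Col1a1* and *Col1a2* were at 59.4 and 48.0 CPM in untreated 2, against 1975 to 4255 and 326 to 2240 CPM in the other libraries. The sum therefore does not show an equal share of these cells. Untreated 2 stood apart, with a mean distance of 1.22 (log2 CPM) to the other libraries against 0.611 to 0.729 for the others. In it the 20% of tested genes richest in GC lay at a median of -0.72 log2 from the mean of the other libraries, and the 20% poorest in GC at 0.76. Of the 10 chaperones 5 were among the richest 20% (*Hspa1a*, *Hspa1b*, *Hspb1*, *Bag3* and *Hsf1*), and *Dnajb4*, with 39.0% GC, had a lower GC content than all but 2.97% of the tested genes. Results of the 10 genes and of whole lists that rest on untreated 2 are therefore given with and without it. Single genes of the other lists are mostly given with all libraries only. In whole tumours fewer cells of a type and less RNA per cell cannot be told apart.

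What differed in tumours given GNC with NIR irradiation is the question of the comparison. No chaperone gene passed edgeR's quasi-likelihood test, with Benjamini-Hochberg adjusted p-values of 0.592 to 0.883 over the 10 genes, and 0.0% of the 12517 tested genes passed. In 7 of the 10 genes the highest of the 6 values was found in a single library, treated 1, against 12.3% of tested genes. The inducible HSP70 genes, *Hspb1*, *Hsph1* and *Dnajb1* were at least 2-fold higher in treated 1 than the mean of the other treated tumours, as were 0.615% of tested genes. *Hsf1*, *Dnajb4* and *Hspb8* were at similar levels in all 3 treated tumours.

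**Figure D2:**
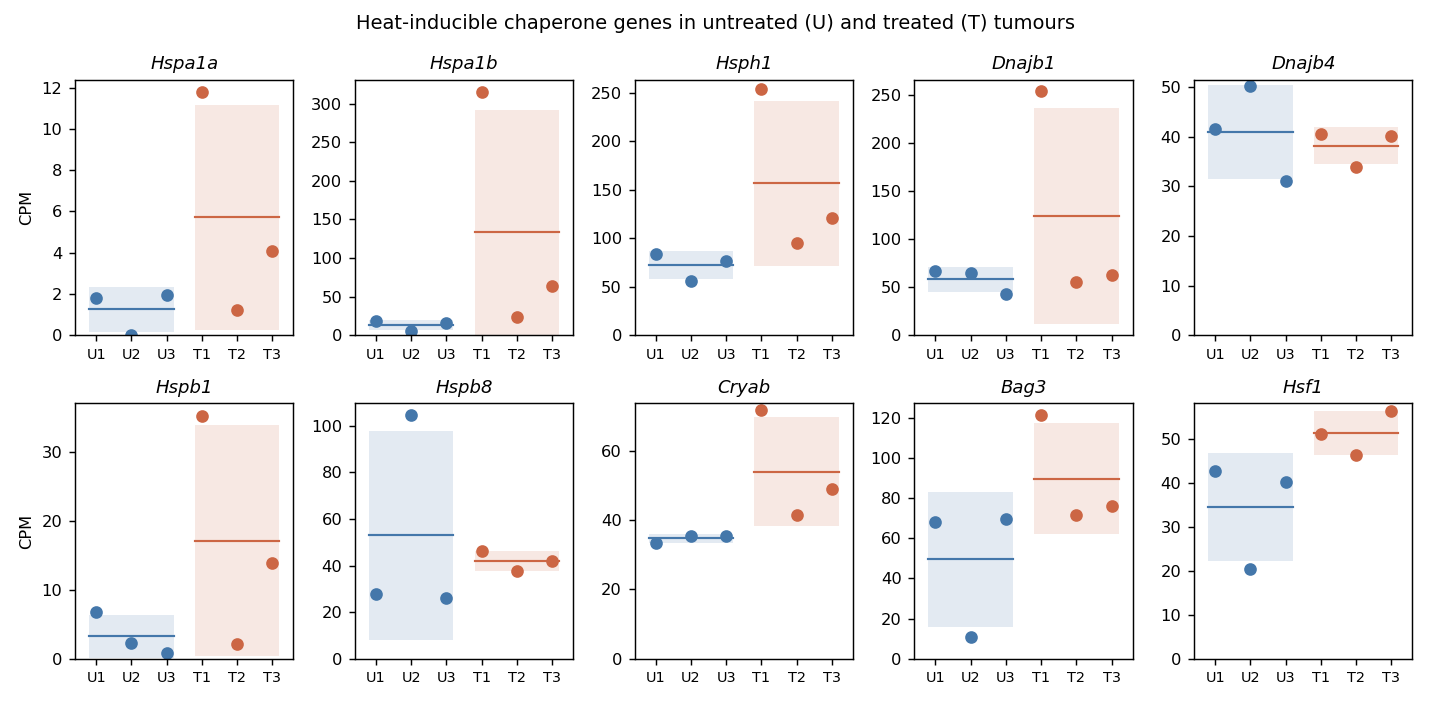
CPM of each gene (y axes, from 0, each with its own scale) in untreated (U1 to U3, blue) and treated (T1 to T3, orange) tumours. Points are libraries, lines are group means and bands are 1 SD (n = 3), drawn no lower than 0. T1 is the highest point in 7 panels, and U2 is the highest in those of *Dnajb4* and *Hspb8*.

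*Hspa1b* (chromosome 17, 34956436 to 34959238, minus strand, 1 exon, protein-coding) codes for the main heat-inducible HSP70. It had 18.9, 5.80 and 15.6 CPM in the untreated libraries, and 316, 23.5 and 63.5 CPM in the treated libraries. The groups did not overlap, yet treated 2 lay only 1.36-fold above the mean of untreated 1 and 3. Treated 1 lay 23.5-fold above the untreated mean. The log2 fold change was 3.30 ± 0.98 (SE), with an unadjusted p of 0.0115 and an adjusted p of 0.592 in edgeR. It was 1.68 ± 0.61 without treated 1 (adjusted p 0.872 in edgeR) and 2.94 ± 1.01 without untreated 2 (adjusted p 0.239 in edgeR).

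*Hspa1a* (chromosome 17, 34969190 to 34972156, minus strand, 1 exon), the neighbouring copy, codes for a nearly identical protein. It had 12, 0 and 16 counts in the untreated libraries, and 66, 9 and 33 in the treated libraries, or 1.81, 0 and 1.96 CPM against 11.8, 1.22 and 4.10 CPM. The count of 0 in untreated 2 allows up to 0.669 CPM (3 counts, counting error only). Treated 2 lay below untreated 1 and 3, so the groups overlapped. The log2 fold change was 2.05 ± 1.03 (adjusted p 0.592 in edgeR), or 0.99 ± 1.07 without treated 1 and 1.54 ± 0.84 without untreated 2. Of the 50-base windows of the *Hspa1a* transcript 58.8% also occur in *Hspa1b*, and of those of *Hspa1b* 62.3% occur in *Hspa1a*. How the deposited counting treated reads that fit both copies is not given in the sources used here, so the split between the copies is uncertain. Their sum does not depend on how shared reads were divided, but it would be too low if such reads were dropped.

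Summed over both copies, HSP70 had 20.7, 5.80 and 17.5 CPM in the untreated libraries, and 327, 24.8 and 67.6 CPM in the treated libraries. Treated 3 was 2.73-fold above treated 2, and treated 1 was 7.09-fold above the mean of both. The log2 fold change of the sum was 3.23 ± 0.98 (adjusted p 0.592 in edgeR), 1.63 ± 0.63 without treated 1 and 2.85 ± 0.99 without untreated 2. An exact permutation test of the mean log2 CPM, 2-sided, gave p = 0.1, which is the smallest that 3 against 3 libraries allow. DESeq2 called *Hspa1b* (adjusted p 0.0314) and the sum (0.0415), where it called 0.136% of the genes as higher, and no other chaperone gene. The adjusted p for *Hspa1b* ranged from 0.0314 to 0.966 over the alternatives, and the DESeq2 call was lost without treated 1 (log2 fold change 1.67 ± 0.65, adjusted p 0.525) and without untreated 2 (2.95 ± 1.24, adjusted p 0.185).

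*Hsph1* (chromosome 5, 149614287 to 149636376, minus strand) codes for HSP110, a nucleotide exchange factor that recycles HSP70. It had 83.9, 55.8 and 76.4 CPM in the untreated libraries, and 254, 95.1 and 121 CPM in the treated libraries. Each treated value lay above each untreated one, though treated 2 was close to untreated 1. For *Hsph1* the log2 fold change was 1.12 ± 0.40 (unadjusted p 0.0254, adjusted p 0.592 in edgeR), 0.58 ± 0.29 without treated 1 and 0.95 ± 0.38 without untreated 2.

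*Dnajb1* (chromosome 8, 83608193 to 83612653, plus strand) codes for HSP40, the J-domain partner that stimulates the ATPase of HSP70. It had 66.2, 64.9 and 43.3 CPM in the untreated libraries, and 254, 55.5 and 62.5 CPM in the treated libraries. Treated 2 and 3 lay inside the untreated range, and only treated 1 lay above it. The log2 fold change of *Dnajb1* was 1.09 ± 0.60 (adjusted p 0.602 in edgeR), and 0.02 ± 0.29 without treated 1. *Dnajb4* (chromosome 3, 152178511 to 152210302, minus strand), a related J-domain protein, had 41.6, 50.2 and 31.2 CPM against 40.6, 33.9 and 40.2 CPM. All 3 treated values lay inside the untreated range, and treated 1 was no higher than untreated 1. Its log2 fold change was -0.10 ± 0.23 (adjusted p 0.883 in edgeR), and 0.07 ± 0.16 without untreated 2.

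*Hspb1* (chromosome 5, 135887919 to 135889563, plus strand) codes for the small heat shock protein HSP25, which binds unfolded clients and actin filaments. It had 45, 10 and 7 counts in the untreated libraries, and 197, 16 and 112 in the treated libraries, or 6.81, 2.23 and 0.859 CPM against 35.2, 2.18 and 13.9 CPM. Treated 1 and 3 lay above each untreated value, and treated 2 lay below untreated 1 and 2. For *Hspb1* the log2 fold change was 2.36 ± 1.05 (adjusted p 0.592 in edgeR), 1.28 ± 1.03 without treated 1 and 3.52 ± 1.22 without untreated 1. Keratinocytes express this gene strongly, and the summed CPM of 8 keratinocyte markers came to 1304, 607 and 10.9 in the untreated libraries, but 23.6, 13.2 and 76.5 in the treated libraries. All 8 markers had a lower mean in treated tumours, and in some libraries *Krt5*, *Krt14*, *Krt1*, *Lor*, *Dsp* or *Krtdap* were at 0. Their part in the values of *Hspb1* was not tested.

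*Cryab* (chromosome 9, 50751325 to 50756636, plus strand) codes for αB-crystallin, a small heat shock protein of lens and muscle that is also made under stress. It had 33.3, 35.5 and 35.3 CPM in the untreated libraries, and 71.7, 41.4 and 48.9 CPM in the treated libraries. The untreated tumours were nearly equal (34.7 ± 1.23 CPM, SD, n = 3), and all 3 treated tumours lay above them (54.0 ± 15.8 CPM). Its log2 fold change was 0.64 ± 0.25 (unadjusted p 0.0365, adjusted p 0.592 in edgeR), 0.37 ± 0.22 without treated 1 and 0.64 ± 0.23 without untreated 2. *Cryab* overlaps 1030 bases of *Hspb2* on the opposite strand, and the strand setting of the counting is not given in the sources used here. *Hspb2*, another small heat shock protein gene, was at 4.39, 4.24 and 6.50 CPM in the untreated libraries, and 3.04, 2.72 and 2.24 CPM in the treated libraries, so its values lay the other way.

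*Hspb8* (chromosome 5, 116408491 to 116422864, minus strand) codes for the small heat shock protein that works with BAG3. It had 27.8, 105 and 26.1 CPM in the untreated libraries, and 46.3, 37.7 and 42.0 CPM in the treated libraries. Untreated 2 was 3.88-fold above the mean of untreated 1 and 3, and the treated tumours lay between. With all libraries the log2 fold change was -0.32 ± 0.54 (adjusted p 0.831 in edgeR). Without untreated 2 it was 0.63 ± 0.14, with no overlap (unadjusted p 0.002, adjusted p 0.227 in edgeR). DESeq2 gave an adjusted p of 0.0517 on the same 5 libraries, over a range of 0.0517 to 1.00 across the alternatives. Correction for GC content and length left the value at -0.35 ± 0.52.

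Skeletal muscle expresses *Cryab* and *Hspb8* strongly. The summed CPM of 10 skeletal muscle markers came to 107, 51.8 and 29.3 in the untreated libraries, but 28.6, 10.3 and 468 in the treated libraries, and all 10 had a higher mean in treated tumours. They were highest in treated 3 and lowest in treated 2, and in some libraries *Myh4*, *Myh1*, *Ckm*, *Tnnc2* or *Myl1* were at 0. The 8 smooth muscle and pericyte markers summed to 58.2 to 82.9 CPM in untreated and 59.7 to 109 CPM in treated tumours, 5 of the 8 with a higher mean in treated ones, and *Cnn1* was at 0 in at least 1 library. The part of muscle in the values of *Cryab* and *Hspb8* was not tested.

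*Bag3* (chromosome 7, 128523616 to 128546981, plus strand) codes for the cochaperone that joins HSP70 to small heat shock proteins and sends clients to autophagy. It had 68.2, 10.7 and 69.8 CPM in the untreated libraries, and 122, 71.7 and 76.0 CPM in the treated libraries. The groups did not overlap, but treated 2 lay close to untreated 3. Untreated 1 and 3 were 6.44-fold above untreated 2, and the log2 fold change of 0.85 ± 0.63 (adjusted p 0.655 in edgeR) was 0.37 ± 0.22 without that library and 0.56 ± 0.73 without treated 1.

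*Hsf1* (chromosome 15, 76477422 to 76501913, plus strand) codes for the transcription factor itself, which is regulated mainly at the protein level. It had 42.7, 20.3 and 40.2 CPM in the untreated libraries, and 51.1, 46.2 and 56.2 CPM in the treated libraries. Each treated value lay above each untreated one, and treated 1, where the HSP70 genes were highest, was 1.00 times the mean of treated 2 and 3. For *Hsf1* the log2 fold change was 0.57 ± 0.30 (adjusted p 0.597 in edgeR), and 0.30 ± 0.13 without untreated 2. The activity of the factor was not measured.

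**Figure D3:**
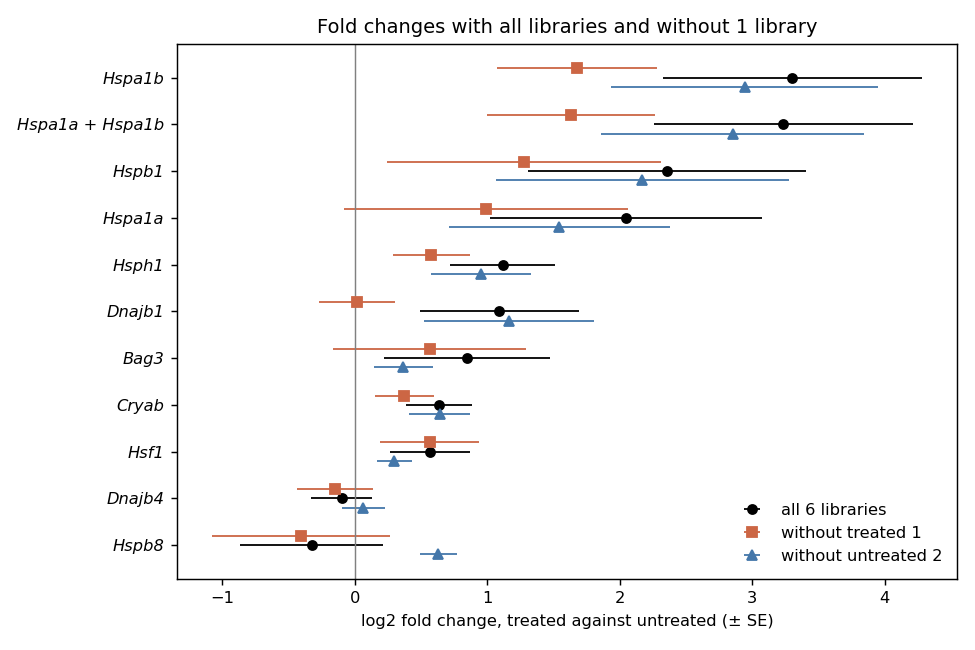
Log2 fold change of treated against untreated tumours (x axis, bars are SE from edgeR) for each gene and for the summed HSP70 copies, with all 6 libraries, without treated 1 and without untreated 2. Without treated 1 *Dnajb1* moves from 1.09 to 0.02 and *Hspa1b* from 3.30 to 1.68, and without untreated 2 *Hspb8* moves from -0.32 to 0.63.

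Across the 10 genes the edgeR log2 fold changes had a median of 0.97, against -0.0010 over all tested genes, and 8 were above 0, as were 49.9% of all tested genes. At an unadjusted p under 0.05 in edgeR 3 were higher (*Hspa1b*, *Hsph1* and *Cryab*), against 3.32% of tested genes, and 0 lower. In 5 of the 10 (*Hspa1b*, *Hsph1*, *Cryab*, *Bag3* and *Hsf1*) all 3 treated libraries exceeded all 3 untreated ones, against 10.6% of tested genes. Without untreated 2 these 5 and *Hspb8* did so, 6 of 10 against 19.7% of tested genes. Without treated 1 the same 5 did so, against 15.2% of tested genes.

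Treated 1 was the highest of the 6 libraries in 7 of the 10 genes, against 12.3% of tested genes. In 5 of the 10 (*Hspa1a*, *Hspa1b*, *Hsph1*, *Dnajb1* and *Hspb1*) treated 1 was at least 2-fold above the mean of treated 2 and 3, against 0.615% of tested genes. The ratio was 7.25-fold for *Hspa1b*, 4.30 to 4.43-fold for *Dnajb1*, *Hspb1* and *Hspa1a*, and 2.35-fold for *Hsph1*. It was 1.65-fold for *Bag3*, 1.59-fold for *Cryab*, 1.16-fold for *Hspb8*, 1.10-fold for *Dnajb4* and 1.00-fold for *Hsf1*. The median log2 ratio was 0.98 for the 10 genes and 0.02 for all tested genes. The shared GC shift of untreated 2 does not enter this ratio, which uses treated libraries only. It compares 1 library with 2 others and has no replicate check.

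**Figure D4:**
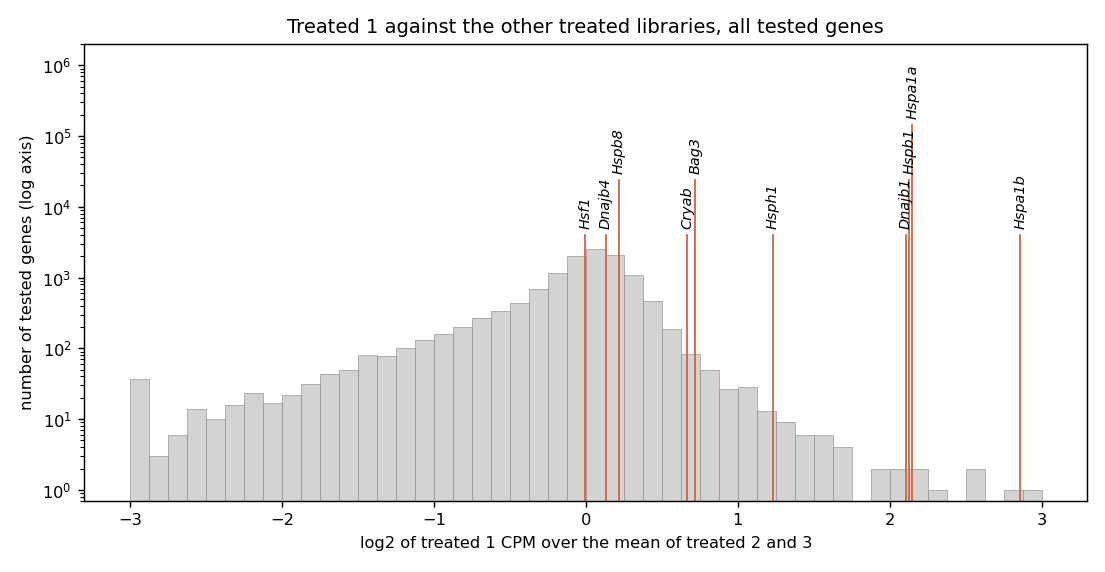
Distribution over 12517 tested genes of the log2 ratio of CPM in treated 1 to the mean of treated 2 and 3 (x axis, values beyond 3 counted in the end bins), with the number of genes on a log axis. Orange lines mark the 10 chaperone genes, of which 5 lie at 1 or above, where 77 tested genes lie, and 3 lie between 0.00 and 0.22.

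Per kilobase of the longest protein-coding transcript, the levels in untreated tumours were led by *Cryab* (31.1 ± 1.10 CPM per kb, SD, n = 3) and *Hspb8* (29.1 ± 24.7). Without untreated 2 *Hspb8* was at 14.9 CPM per kb, below *Bag3* (26.9), *Hsph1* (21.1), *Hsf1* (19.7) and *Dnajb1* (18.3). With all 3 untreated libraries *Dnajb1* (19.4 ± 4.30), *Bag3* (19.4 ± 13.1), *Hsph1* (19.0 ± 3.83), *Dnajb4* (16.6 ± 3.87) and *Hsf1* (16.3 ± 5.83) followed within their SD of each other. *Hspa1b* (4.79 ± 2.43) and *Hspb1* (3.55 ± 3.35) lay lower, and *Hspa1a* (0.424 ± 0.368) was the lowest, within the SDs of *Hspb1*. In treated tumours the order was *Cryab* (48.3 ± 14.1 CPM per kb), *Hspa1b* (47.9 ± 56.5), *Dnajb1* (41.4 ± 37.5), *Hsph1* (41.2 ± 22.4), *Bag3* (35.0 ± 10.8), *Hsf1* (24.3 ± 2.36), *Hspb8* (23.1 ± 2.38), *Hspb1* (18.4 ± 18.0), *Dnajb4* (15.5 ± 1.53) and *Hspa1a* (1.92 ± 1.84). Each gene overlapped its neighbour in that order within the SDs, except *Dnajb4* and *Hspa1a*. The levels of the HSP70 copies carry the uncertainty of shared reads.

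The rest of the chaperone network was read from lists of related genes, some of which share members. In none of them did a gene pass edgeR's test over all genes, and in none was treated 1 at least 2-fold above the mean of treated 2 and 3. Among 16 other heat-inducible targets of heat shock factor 1 the log2 fold change was above 0 in 9 and below 0 in 7. The median was 0.10, and 3 were higher at an unadjusted p under 0.05 in edgeR. Of all tested genes 49.9% lay above 0 and 3.32% were higher at that threshold. These shares are also the background for the lists that follow, where all libraries are used. The smallest p-values belonged to *Hspd1*, the mitochondrial chaperonin (614 ± 114 against 348 ± 55.0 CPM, SD, n = 3), and *Ier5*, a growth-response gene (47.2 ± 6.82 against 24.3 ± 10.1 CPM). Without untreated 2 the log2 fold change was above 0 in 12 and below 0 in 4, with a median of 0.35, and 8 were higher at an unadjusted p under 0.05 in edgeR, against 9.55% of tested genes. *Hsp90aa1*, *Dnaja1*, *Chordc1* and *Cacybp* then lay above 0 and *Serpinh1* below. With all 6 libraries, treated 1 was the highest in 0 of these 16 genes. In *Dnaja1*, *Hspa8*, *Hspe1*, *Chordc1*, *Cacybp*, *Fkbp4* and *Hsp90aa1*, however, only untreated 2 lay above treated 1. *Hsp90aa1*, for example, had 1578 CPM in untreated 2 and 1122 in treated 1, against 759 to 1024 CPM in the other libraries. In the rest of the list a library other than these was the highest. Among 8 other HSP70 and HSP110 relatives 5 were above 0 (3 without untreated 2) and 1 was higher at an unadjusted p under 0.05 in edgeR, *Hspa4*, an exchange factor related to *Hsph1* (375 ± 48.1 against 239 ± 22.0 CPM), followed by *Hspa4l* (log2 fold change 0.35 ± 0.20).

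Of 11 HSP90 genes and co-chaperones 8 were above 0 (11 without untreated 2). Smallest in p by edgeR was *Stip1*, which bridges HSP70 and HSP90 (206 ± 34.6 against 131 ± 23.5 CPM). Next came *Ahsa1*, an activator of the HSP90 ATPase (97.2 ± 8.31 against 74.3 ± 9.36 CPM). The largest log2 fold change was that of *Hsp90ab1* (0.66 ± 0.43), which was lowest in untreated 2. Of 9 other J-domain partners 4 were above 0 (5 without untreated 2) and 5 below, with a median of -0.0023. The smallest p-values belonged to *Dnajb5* (log2 fold change -0.56 ± 0.36) and *Dnaja1* (-0.43 ± 0.35), both highest in untreated 2. Of 7 other BAG proteins and HSP70 regulators 5 were above 0 (6 without untreated 2), with *Bag2* at 29.0 ± 4.46 against 17.5 ± 4.83 CPM and *Bag1* at a log2 fold change of 0.31 ± 0.21. Of 8 other small heat shock protein genes 4 could be tested, 3 of them below 0, with *Hspb2* at -0.93 ± 0.35 and *Hspb11* at -0.22 ± 0.36 (above 0 without untreated 2). The other heat shock factors and the factor's binding protein were below 0 in 3 of 3 tested, with and without untreated 2. With all libraries *Hsf2* was at -0.45 ± 0.28 and *Hsbp1* at -0.21 ± 0.20, both highest in untreated 2. The median of this list was -0.44 with that library and -0.13 without it. Among 6 partners of BAG3 in autophagy 3 were above 0, with *Synpo2* at 1.29 ± 0.54 and *Nbr1* at -0.32 ± 0.22. *Synpo2* was low, at 1.8, 1.1 and 1.6 CPM in the untreated libraries and 1.8, 3.1 and 6.2 CPM in the treated libraries. Its groups overlapped, since treated 1 lay inside the untreated range.

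The treated tumours were also compared by the mean of each list. The mean log2 CPM of the 10 chaperone genes, relative to the untreated mean, stood at 0.38, -0.37 and -0.01 in the untreated libraries, and at 1.89, 0.27 and 0.96 in the treated libraries, so treated 2 lay below untreated 1. Among treated tumours the same order was found, over smaller differences, in the other heat-inducible targets (0.38, 0.09 and 0.34 in treated 1, 2 and 3), the HSP90 genes and co-chaperones (0.36, 0.10 and 0.34) and the other BAG proteins and HSP70 regulators (0.41, 0.07 and 0.29). The targets and the HSP90 list share genes. Other orders were found in the other HSP70 and HSP110 relatives (0.01, 0.10 and 0.26) and the BAG3 partners (0.01, 0.11 and 0.22). The same held for the other heat shock factors (-0.51, -0.10 and -0.27), J-domain partners (-0.05, -0.02 and -0.09) and small heat shock protein genes (-0.31, -0.34 and 0.02). The heat shock factor list has only 3 tested genes. Among them *Hsf4* was low, at 0.715, 2.86 and 1.62 CPM in treated 1, 2 and 3. *Hsf2* (33.3, 28.3 and 28.3 CPM) and *Hsbp1* (47.2, 45.0 and 50.5 CPM) were not lowest in treated 1. The same mean over 10 immediate early genes, which answer growth factor and stress signals, was 1.01, 1.71 and 2.17 in treated 1, 2 and 3, so for these genes treated 1 was the lowest. All 10 immediate early genes had a log2 fold change above 0, and *Fos* had 19.8 CPM in treated 1 against 79.4 and 86.5 CPM in treated 2 and 3. *Dusp1* likewise had 36.5 CPM against 57.5 and 82.2 CPM. *Atf3*, by contrast, had 28.4 CPM in treated 1 against 11.2 and 24.2 CPM, the order of the chaperones. Over 8 genes of endoplasmic reticulum stress the mean was -0.20, -0.21 and -0.18 in treated 1, 2 and 3, and 7 of the 8 had a log2 fold change below 0. In the untreated libraries it was -0.15, 0.42 and -0.27, and 7 of the 8 genes were highest in untreated 2. Without that library 3 of the 8 lay below 0, since *Hspa5*, *Hsp90b1*, *Pdia4* and *Atf4* then lay above it. *Herpud1*, which aids the degradation of proteins from that compartment, had 34.5 ± 5.58 CPM in treated against 55.0 ± 11.4 in untreated tumours, and *Dnajb9*, its J-domain chaperone, had 22.9 ± 1.34 against 42.6 ± 23.7 CPM.

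Markers of other cell types were also compared among the treated tumours. The 5 neutrophil markers found summed to 13.5, 18.1 and 41.8 CPM in the untreated libraries and 83.8, 34.4 and 75.0 CPM in the treated libraries, all 5 with a higher mean in treated tumours and *Retnlg* at 0 in at least 1 library. Their order in treated tumours was that of the chaperones. The 7 macrophage markers summed to 874, 1479 and 916 CPM in the untreated libraries and 371, 697 and 550 CPM in the treated libraries, without overlap, in the opposite order and with 1 of the 7 at a higher mean in treated tumours. Apart from the neutrophil markers, no list of cell type markers had the order of the chaperones. The 6 endothelial markers, for example, summed to 121, 163 and 192 CPM in treated 1, 2 and 3, with 5 of the 6 at a higher mean in treated tumours. The part of these cells in the chaperone values was not tested.

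**Figure D5:**
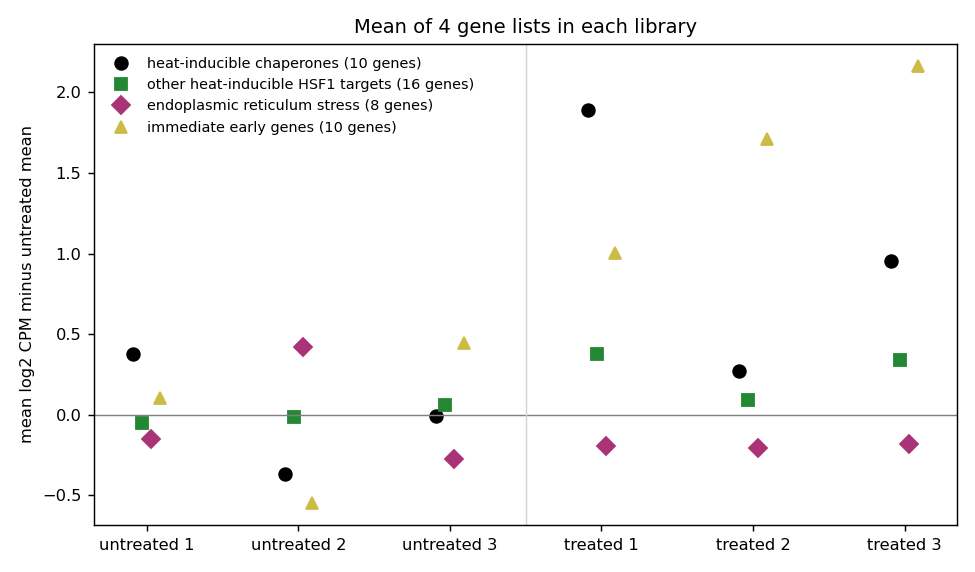
Mean log2 CPM of 4 gene lists in each library relative to the untreated mean (y axis), with libraries on the x axis and 1 point for each list. The chaperone genes stand at 1.89, 0.27 and 0.96 in treated 1, 2 and 3, the immediate early genes at 1.01, 1.71 and 2.17, and the endoplasmic reticulum stress genes between -0.21 and -0.18.

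Likeness to the summed HSP70 copies was measured as the root mean square difference of centred log2 CPM over the 6 libraries, a description of 6 points that share untreated 2 and treated 1. Apart from the copies themselves, *Hspb1* ranked 4 of 12517 tested genes (0.94), *Hsph1* 13, *Bag3* 24 and *Dnajb1* 77, while *Cryab* ranked 766, *Hsf1* 953, *Dnajb4* 6888 and *Hspb8* 10283. Outside the 10, the 8 most similar named genes with at least 5 CPM were *Phlda1* (0.91), *Atf3* (1.02), *Tnc* (1.03), *Usp43* (1.05), *Plxna4* (1.08), *Fosl1* (1.09), *Hcar2* (1.09) and *Gadd45g* (1.10). In *Phlda1* the values were 59.7, 27.9 and 51.6 CPM in treated 1, 2 and 3, and in *Tnc*, a matrix protein, they were 365, 223 and 359 CPM. Treated 2 was thus the lowest of the treated libraries in both, and treated 3 lay nearer to treated 1 than in HSP70. *Gadd45g*, a stress-response gene, was the only one of the 8 with treated 1 at least 2-fold above the mean of treated 2 and 3, at 20.2 CPM against 8.30 and 10.9 CPM.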

How the data were processed

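RNA from 6 tumours (3 untreated, 3 treated, grouped by title) was measured. The authors deposited raw counts, whole numbers for each gene symbol, in a table for each library. Per the submitters' processing notes, TopHat and mm10 were used. For the counting program and its strand setting the sources used here give nothing. The members and lists were chosen with earlier results of these data known.

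Computed here with edgeR 4.0.16 (R 4.3.3) were filterByExpr (smallest count 10), TMM scaling and the quasi-likelihood test of glmQLFTest (2-sided), adjusted by Benjamini-Hochberg over 12517 genes and a threshold of 0.05. *Hspa1a* and *Hspa1b* were also summed and refitted. SE is the log2 fold change over the root of F. CPM use TMM library sizes, and log2 CPM a prior count of 3. Alternatives were other scalings and filters, DESeq2 1.42.0, limma-voom (limma 3.58.1), each library left out, a replicate block, and loess correction (span 0.3) for GC content and length of the longest protein-coding GENCODE M21 transcript. DESeq2 without untreated 2 or treated 1, raw library totals and the other lists without untreated 2 or treated 1 were added after seeing the data. The steps were tested on simulated counts. Gene positions are those of GENCODE M21 (mm10). The named genes are the 10 members, the 2 genes of smallest p in each other list, and the 8 most like summed HSP70 with a mean of at least 5 CPM, passing over unnamed gene models, pseudogenes and small RNAs. No pair of libraries of a group agreed within sampling noise (chi-square per gene 10.1 or more).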

Additional observations from a re-analysis of the deposited data

How the results depend on the processing

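The edgeR fit called 0 genes, with 416 higher and 607 lower at an unadjusted p under 0.05, and limma-voom called 0. DESeq2 called 17 higher and 29 lower with all libraries, 104 and 153 without untreated 2, and 16 and 10 without treated 1. Without 1 library edgeR called 0 higher each time and 0 to 4 lower, the 4 without untreated 3. The log2 fold change of summed HSP70 was 3.23 under DESeq2, which called it, and 1.63 to 3.74 without 1 library. *Dnajb4* lay above 0 with the GC and length correction (0.27), without untreated 2 (0.066) and with DESeq2 on those libraries (0.0664), ranging from -0.26 to 0.066 without 1 library. *Hspb8* did so without untreated 2 (0.63), with DESeq2 on those libraries (0.63) and with the replicate number as a block (0.0043), ranging from -0.65 to 0.63 without 1 library. The other 8 genes and the sum kept a log2 fold change above 0 under each alternative that tested them, with 0.0024 the lowest, for *Dnajb1* by DESeq2 without treated 1. The 5 genes without overlap stayed 5 under 3 other scalings and were 5 to 7 without 1 library, each higher in treated tumours except *Dnajb4*, which was lower without untreated 3. Over these 6 settings 11.9% to 19.7% of tested genes were higher without overlap, and without untreated 3 16.8% were lower. The labels do not say whether shared replicate numbers pair the samples. Same-numbered libraries correlated in their deviations from the group mean at -0.18, -0.11 and 0.11, and the others at -0.22 to 0.24. With 3 libraries in each group these values cannot settle whether samples were paired. With the replicate block edgeR again called 0 genes, with summed HSP70 at 2.68. With 9 to 66 counts where it was detected, *Hspa1a* is limited by depth, as is *Hspb1* in untreated 2 and 3.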
